A study of Mus musculus with 2 samples.

Results

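MicroRNAs (miRNAs) cut from 4 imprinted loci outside the large Dlk1-Dio3 cluster were examined in the muscle wall of the mouse jejunum with and without *Dnmt1*. The rule took all mature products of miR-675 (*H19*), miR-483 (*Igf2*), miR-335 (*Mest*), and miR-296 and miR-298 (*Nespas*), by locus and with no threshold on a measured value, although earlier results of these data were known when the loci were chosen. All 10 products, the 5p and 3p arm of each of the 5 hairpins, were among the 1147 listed entries and above 0 in both libraries. Small RNA of the jejunal tunica muscularis was sequenced at 15 days of age in 1 library from *Dnmt1*-WT and 1 from *Dnmt1*-KO mice on a C57BL/6 background. The strain given for both samples combines the *Cre* and EGFP transgene Tg(Myh11-cre,-EGFP)2Mik with the allele Dnmt1lox/lox. In *Dnmt1*-KO the floxed *Dnmt1* alleles are deleted by this transgene, which the smooth muscle *Myh11* promoter drives, and the study describes its *Dnmt1*-WT mice as carrying the same transgene. The title and genotype of each sample set its group, although a free-text label attached to the WT library gives the mutant genotype. *Cre* acts in smooth muscle, so other cells of the dissected wall should keep *Dnmt1*, which was not measured here by cell type. The methods list animals of both sexes per genotype, and pooling of their RNA is not stated. The variation among animals is therefore unknown for each difference below, and all intervals are 95% and cover counting error only.

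At an imprinted locus, a gene is expressed mainly from the maternal or the paternal chromosome, and the choice is marked by DNA methylation that is set in the germ line. DNMT1 copies methylation to the new DNA strand when cells divide, which keeps such marks in place. *H19* is a maternally expressed long noncoding RNA and the precursor of miR-675. Its neighbour *Igf2*, a paternally expressed fetal growth factor gene, holds miR-483 in an intron. *Mest* is a paternally expressed gene of mesodermal tissues with miR-335 in an intron, and *Nespas* is a paternally expressed antisense transcript of the *Gnas* locus, which encodes the stimulatory G protein alpha subunit. A hairpin yields a 5p and a 3p arm, and a mature miRNA finds its targets mainly through its seed, bases 2 to 8.

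All 10 mature sequences were found in RefSeq (GRCm38.p6). They are shown 5′ to 3′ with the seed in capitals, because targets are found mainly through the seed.
mmu-miR-675-5p: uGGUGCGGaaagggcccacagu
mmu-miR-675-3p: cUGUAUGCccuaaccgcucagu
mmu-miR-483-5p: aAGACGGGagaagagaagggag
mmu-miR-483-3p: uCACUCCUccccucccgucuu
mmu-miR-335-5p: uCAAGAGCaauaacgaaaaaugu
mmu-miR-335-3p: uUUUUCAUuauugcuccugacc
mmu-miR-296-5p: aGGGCCCCcccucaauccugu
mmu-miR-296-3p: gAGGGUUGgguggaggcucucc
mmu-miR-298-5p: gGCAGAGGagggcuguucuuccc
mmu-miR-298-3p: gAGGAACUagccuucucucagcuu
The 10 products had 10 different seeds, and none of these seeds occurred in another of the 1679 mouse mature miRNA names in that table. The members therefore form a group by locus and not by sequence. Their base composition also differed: miR-335-5p is 30.4% G and C and miR-335-3p 36.4%, whereas the other 8 products run from 50.0% to 68.2%. The median of the 918 listed mature products with a sequence was 50.0%.

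On GRCm38, the miR-675 hairpin is on the minus strand of chromosome 7 (142577064 to 142577147), within an exon of 3 annotated *H19* transcripts (exon 1 in 2 of them and exon 2 in the other). The miR-483 hairpin lies on the same chromosome and strand (142654924 to 142654996), 77776 bases from miR-675, in an intron of all 7 *Igf2* transcripts that span it. It also lies in an intron of *Gm49394*, an annotated gene that overlaps *Igf2* on the same strand. The miR-335 hairpin is on the plus strand of chromosome 6 (30741299 to 30741396), within an intron of all 7 *Mest* transcripts that span it. The hairpins of miR-296 (174267047 to 174267125) and miR-298 (174267504 to 174267585) lie on the minus strand of chromosome 2, 378 bases apart. GENCODE M21 places both outside the annotated *Nespas* gene, 14112 and 13652 bases beyond its 3′ end on the same strand.

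The first question was how abundant these miRNAs were in jejunal muscle. The deposited value was read as a read count times a factor close to 1, so a value of 10 was taken as about 10 reads. The unit is not stated, and some values in the table are fractional. The members summed to 5357 of 5741906 in *Dnmt1*-WT (0.0933%) and to 6595 of 4754677 in *Dnmt1*-KO (0.139%). miR-335-5p was the most abundant, at rank 74 of 1147 entries by the mean of both libraries, followed by miR-298-5p at rank 123, miR-335-3p at rank 170 and miR-296-5p at rank 249. The *Mest* products gave 73.3% of the members' sum in WT and 71.5% in KO, and the *Nespas* products 26.2% and 27.7%. The products of *H19* and *Igf2* were barely detected and together gave under 1% of the sum in each library. Both libraries ordered the first 6 products alike, from miR-335-5p through miR-298-5p, miR-335-3p, miR-296-5p and miR-296-3p to miR-483-5p. Each of the first 5 stood apart from the next one below it by more than counting error in both libraries, except that miR-296-3p and miR-483-5p did not in KO, with 36 and 24 reads (1.5-fold, interval 0.871 to 2.63). Below miR-483-5p no neighbours in the order could be told apart at this depth. Capture differs between small RNA sequences and was not measured, so this order is one of reads.

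**Figure D1:**
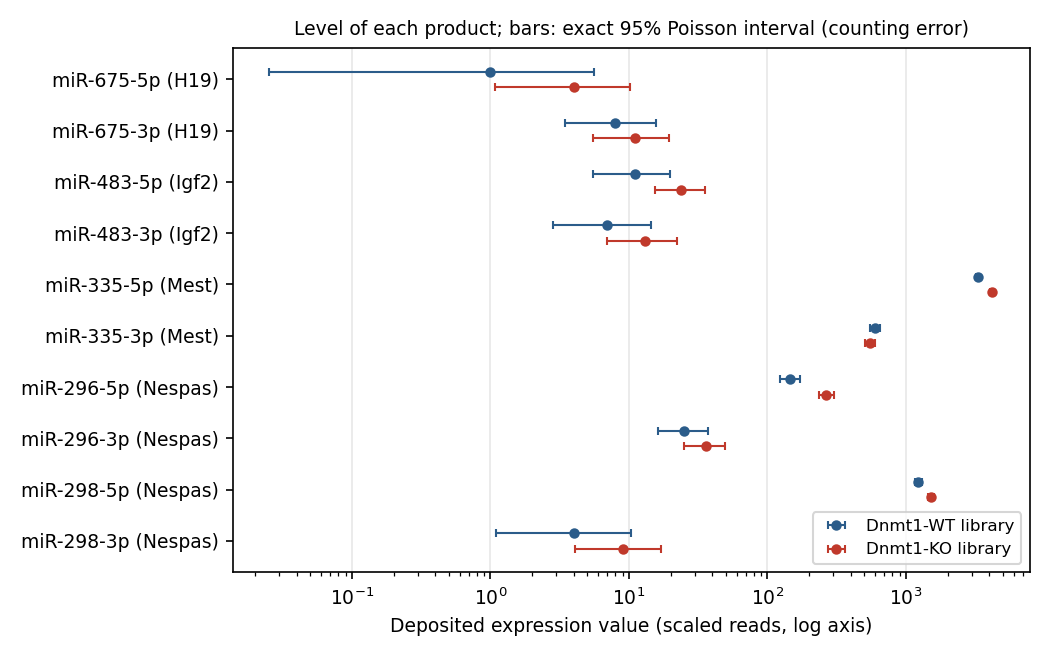
Deposited value (scaled reads, log axis) of each of the 10 products in the *Dnmt1*-WT library (blue) and the *Dnmt1*-KO library (red), with exact Poisson 95% intervals of counting error as bars. miR-335-5p, miR-298-5p, miR-335-3p and miR-296-5p lie above 100 in both libraries, while the *H19* and *Igf2* products lie between 1 and 24, and the red point is to the left of the blue one for miR-335-3p alone.

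The second question was whether the loci differed between the genotypes. The products are paired arms of shared hairpins, so they are not separate observations. On the deposited scale 9 of the 10 products were higher in the KO library, and miR-335-3p was lower. Of all entries, 50.3% were higher in KO on that scale, and of the 794 entries above 0 in both libraries, as all members are, 49.5%. The median log2 ratio of the members was 0.69 against 0 over these 794 entries. Low products set much of that median, which was 0.31 over the 4 members whose mean reached 100, where all entries had a median of -0.03. The counting interval of the KO/WT ratio lay above 1 for 4 members and below 1 for none, and over all entries it lay above 1 for 16.7% (21.5% of those above 0 in both) and below 1 for 14.6%. Among members whose mean reached 100 it was above 1 for 3 of 4, against 36.4% of the 316 entries at that level. With library totals made equal, which raises each log2 ratio by 0.27, all 10 products were higher in KO, as were 63.2% of all entries and 68.1% of those above 0 in both libraries.

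At *H19*, both products of miR-675 were near the detection limit. mmu-miR-675-3p was listed at 8.0 in WT and 11.0 in KO, a ratio of 1.38 (interval 0.501 to 3.92). mmu-miR-675-5p was listed at 1.0 and 4.0, a ratio of 4 whose interval ran from 0.394 to 196. Summed over both arms the locus had 9.0 in WT and 15.0 in KO, a ratio of 1.67 (0.679 to 4.30). A difference between the libraries was thus not detectable for miR-675 at this depth.

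At *Igf2*, both arms of miR-483 were higher in the KO library, again on few reads. miR-483 is known for its high levels in Wilms tumours, in which *Igf2* is overexpressed. miR-483-5p was listed at 11.0 in WT and 23.9 in KO, a ratio of 2.17 (1.02 to 4.91). miR-483-3p was listed at 7.0 and 13.0, a ratio of 1.86 (0.685 to 5.47). The sum went from 18.0 to 36.9, a ratio of 2.05 (1.13 to 3.81), with 18 and 37 reads behind it. This was the highest ratio of the 4 loci, but its interval overlapped those of the other 3.

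At *Mest*, the arms of miR-335 went different ways on the deposited scale. miR-335, known as a suppressor of metastasis in breast cancer cells, was the best measured hairpin of the group. mmu-miR-335-5p was listed at 3332 in WT and 4163 in KO, a ratio of 1.25 (1.19 to 1.31). mmu-miR-335-3p was listed at 596.7 in WT and 550.4 in KO, a ratio of 0.922 (0.820 to 1.04), so its interval included 1. With equal totals the ratios were 1.51 (1.44 to 1.58) and 1.11 (0.990 to 1.25), and the direction of miR-335-3p flipped. The sum of both arms went from 3929 to 4714, a ratio of 1.20 (1.15 to 1.25).

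At *Nespas*, all 4 products were higher in the KO library, and the 2 neighbouring hairpins differed in size of ratio. miR-298-5p was listed at 1226.5 in WT and 1518.7 in KO, a ratio of 1.24 (1.15 to 1.34). miR-298-3p had only 4.0 and 9.0, a ratio of 2.25 (0.624 to 9.94). miR-296, known for a role in the growth of blood vessels, had the higher ratio of the pair. miR-296-5p was listed at 145.4 in WT and 266.2 in KO, a ratio of 1.83 (1.49 to 2.26), and miR-296-3p at 25.1 and 35.9, a ratio of 1.43 (0.836 to 2.49). The locus summed to 1401 in WT and 1830 in KO, a ratio of 1.31 (1.22 to 1.40).

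**Figure D2:**
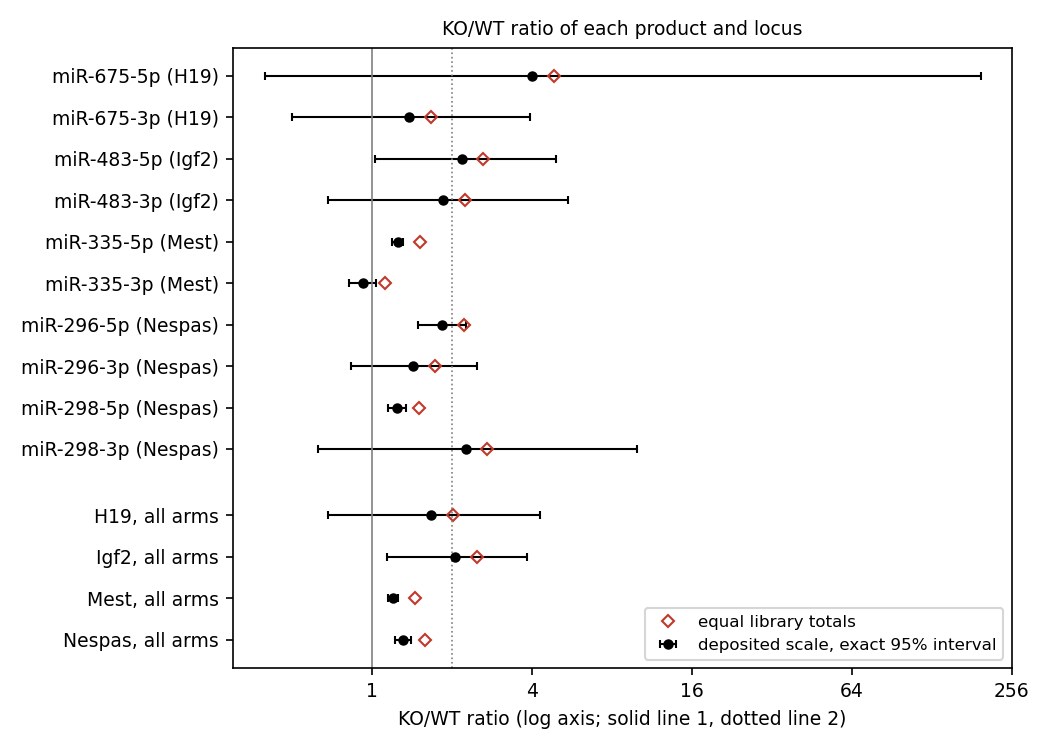
KO/WT ratio (log axis) of each product and of each locus summed over its arms, on the deposited scale with exact 95% intervals of counting error (black) and with equal library totals (open red diamonds). On the deposited scale the intervals of miR-335-5p, miR-298-5p, miR-296-5p and miR-483-5p lie to the right of 1, and every diamond lies to the right of 1.

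Counted at a change of 2-fold, 3 of the 10 members were at least 2-fold higher in KO (miR-483-5p, miR-298-3p and miR-675-5p) and 0 were at least 2-fold lower. Of all entries, 26.7% were at least 2-fold higher and 23.1% at least 2-fold lower, but these include entries at 0 in 1 library. Of the 794 entries above 0 in both, 15.4% were at least 2-fold higher and 12.1% at least 2-fold lower. The 3 members rested on no more than 24 reads in either library, and with its single WT read set to the floor of 3 reads miR-675-5p had a ratio of 1.33, below 2-fold. At a mean of 100 and more, 0 of 4 members were past 2-fold in either direction, against 6.33% higher and 8.86% lower among the 316 entries. With equal totals 5 members were at least 2-fold higher, miR-296-5p (2.21) and miR-483-3p (2.24) having joined them. On that scaling 31.5% of all entries were at least 2-fold higher and 19.1% at least 2-fold lower, and of those above 0 in both libraries 22.3% were at least 2-fold higher.

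Set beside other mature products of similar level (a mean from 0.5 to 2 times that of the member), miR-296-5p had one of the higher ratios, with 8 of 119 products above it. miR-335-5p and miR-298-5p were less marked, with 17 of 50 and 23 of 67 above them. miR-335-3p lay in the lower part, with 53 of 85 above it. The order of the ratios does not depend on the scaling, which multiplies all of them alike.

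**Figure D3:**
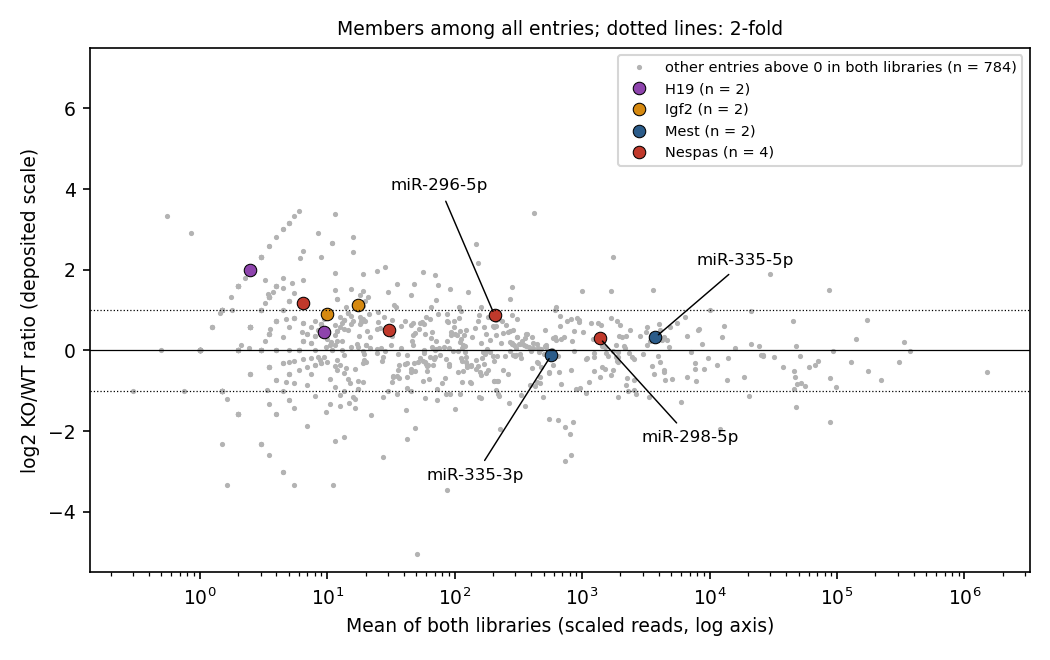
log2 KO/WT ratio on the deposited scale against the mean of both libraries (log axis) for the entries above 0 in both libraries, with the 10 members in colour by locus and the other 784 in grey. The members lie within the spread of the other entries, 9 of them above 0, with miR-296-5p between 0 and the upper 2-fold line at a mean of 205.8.

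Differences between members were free of the scaling and were given as a ratio of KO/WT ratios with an exact conditional interval. In all, 14 pairs of arms, hairpins or loci were compared, and the intervals were not adjusted for that number. In 4 of the 14 the interval excluded 1, but these 4 are not separate differences, because some of them rest on the same reads. Between the arms of miR-335 the ratio of ratios was 1.35 (1.19 to 1.54). Between miR-296 and miR-298, hairpins 378 bases apart, it was 1.43 (1.16 to 1.76), and between their 5p arms alone 1.48 (1.19 to 1.85). *Nespas* and *Mest* differed little, at 1.09 (1.003 to 1.18). miR-298-5p and miR-335-5p, from different chromosomes, had a ratio of ratios of 0.991 (0.907 to 1.08). For *Igf2* against *Mest* it was 1.70 (0.944 to 3.18) and for *Igf2* against *H19* 1.23 (0.394 to 3.71), and the low counts of these loci made the intervals wide.

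The arms of a hairpin are cut from the same precursor, which makes their balance a measure that the library scale cannot move. The miR-335 hairpin is shown 5′ to 3′ with both arms in capitals, the 5p arm first, since its arms were the clearest case of a shift.
Mir335: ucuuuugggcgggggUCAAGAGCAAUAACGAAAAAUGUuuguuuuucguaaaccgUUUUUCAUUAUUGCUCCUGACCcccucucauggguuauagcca
The 5p arm gave 84.8% of its reads in WT (83.7 to 85.9%) and 88.3% in KO (87.4 to 89.2%), and these intervals did not overlap. The arms of many hairpins differed by more. Of 62 hairpins whose arms each reached a mean of 100, 33 had a larger difference between the log2 ratios of their arms than the 0.44 of miR-335, and the median size was 0.49. For miR-296 the 5p share was 85.3% in WT and 88.1% in KO, and for miR-298 it was 99.7% and 99.4%, with overlapping intervals in each case. miR-483 gave 61.1% and 64.9% of 18 and 37 reads from its 5p arm. Its intervals of 35.7 to 82.7% and 47.5 to 79.8% each include an equal share of the arms. miR-675 was the exception with more reads from the 3p arm. Its 5p share was 11.1% of 9 reads in WT (0.281 to 48.2%) and 26.7% of 15 reads in KO (7.79 to 55.1%). The KO interval of miR-675 also includes an equal share.

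**Figure D4:**
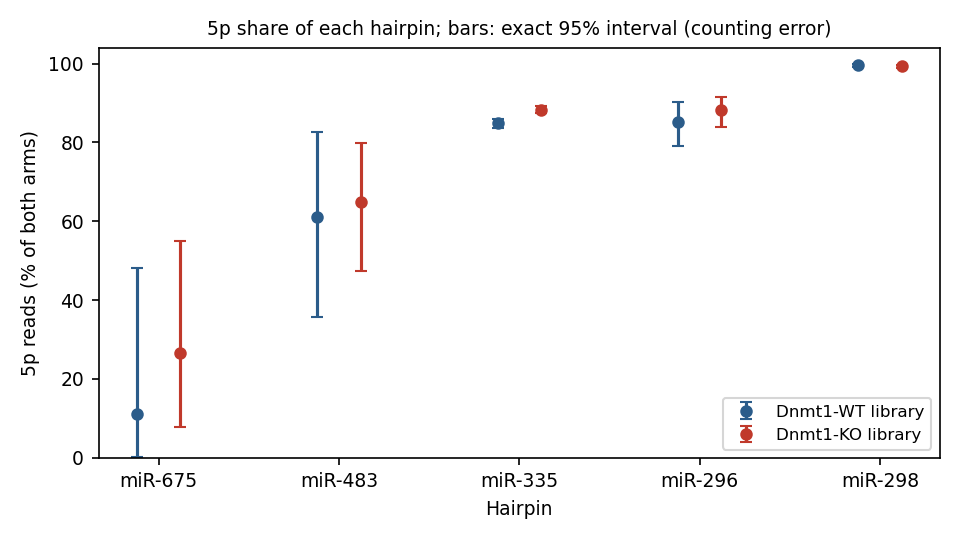
Share of each hairpin's reads that came from its 5p arm (percent) in the *Dnmt1*-WT (blue) and *Dnmt1*-KO (red) libraries, with exact 95% intervals. The share is above 80% for miR-335, miR-296 and miR-298 and below 30% for miR-675, and the intervals of the libraries are separate for miR-335 alone.

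For the 4 members whose mean reached 100, the products nearest to it in KO/WT ratio at a similar level were looked up, a likeness over 2 libraries. Nearest to miR-335-5p were miR-300-3p (ratio 1.25), miR-5099 (1.26) and the endothelial miR-126a-3p (1.27). Nearest to miR-298-5p were miR-337-5p (1.23), miR-300-3p again and miR-129-2-3p (1.26). Nearest to miR-335-3p were miR-1198-5p, the epithelial miR-200a-3p and miR-383-5p, each at 0.93 in round figures. Nearest to miR-296-5p were miR-323-3p, the leukocyte product miR-142a-3p (both 1.82) and miR-184-3p (1.82). Of these 11 products, 3 (of miR-300, miR-337 and miR-323) come from the imprinted Dlk1-Dio3 cluster, which gives 55 of the 313 mature products with a mean of at least 100.

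That cluster was the only other imprinted locus set beside the members, and it does not stand for all imprinted miRNAs. Of its 102 listed products, 84 had a mean of at least 10, of which 67 were higher and 16 lower in KO, with a median log2 ratio of 0.42. By the same minimum, 7 members were left, of which 6 were higher and 1 lower, with a median of 0.52, and 51.6% of all 543 entries at that level were higher. On the deposited scale the cluster's sum had a ratio of 1.57 (1.57 to 1.58) and the sum of the 10 members 1.23 (1.19 to 1.28). With equal totals the ratio of the members' sum was 1.49 (1.43 to 1.54), and that scaling raises the cluster's ratio by the same factor. Just 2 products, miR-127-3p and miR-541-5p, made up 72.5% of the cluster's sum in WT. Without them the cluster's ratio was 1.27 (1.26 to 1.29) on the deposited scale. The cluster's products share transcripts, and a difference between it and the members was not tested.

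Marker miRNAs of several cell types also differed between the 2 libraries. All 6 smooth muscle markers, led by miR-143-3p, were above 0 in both libraries, and all 6 were lower in KO. Their summed ratio was 0.652, or 0.788 with equal totals, and most of that sum was miR-143-3p (ratio 0.694). Of the markers of other cells, all 5 for leukocytes were higher in KO (summed 1676 in WT, 4843 in KO). All 4 for red cells (12745 and 47217) and both for endothelium (10080 and 14282) were also higher in KO. Nearly all of the red cell sum was miR-486a-5p (12591.6 in WT, 46756.4 in KO). The next most abundant red cell marker, miR-451a, had 141.4 in WT and 420.8 in KO. Of 8 epithelial markers 4 were higher, and their sum went from 14503 to 18129, a ratio of 1.25 (1.22 to 1.28). Of 4 enteric neural markers 2 were higher, and their sum went from 6565 to 5636, a ratio of 0.859 (0.828 to 0.890) that became 1.04 with equal totals. Their part in the members' ratios was not tested. In bulk tissue, fewer cells of a type and less RNA per cell cannot be told apart, and the parental allele from which a miRNA came is not visible in these counts.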

How the data were processed

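Per the labels and methods, small RNA was isolated with a mirVana kit, the TruSeq Small RNA protocol of Illumina was used for the libraries, and a commercial provider sequenced them and annotated the reads against GRCm38/mm10. The submitters' processing notes name Bowtie. The miRNA release, the treatment of reads with several matches and the scaling are not given in the sources used here. The deposited table gives an expression score per miRNA with 1 decimal, and a column of fold changes computed by the authors, which was left aside. Among values from 20 to 300, 89.1% of 229 in WT and 91.1% of 248 in KO lay within 0.1 of a whole multiple of a step of 1.00286 and 0.99721, so the score was read as reads times that step (5725538 and 4767987 implied reads). How the step was set is not shown by the values, and it does not equalise totals. Other values are fractional, and no count model was fitted beyond the counting intervals, which used rounded reads.

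Groups came from the genotype labels. The KO/WT ratio was taken with no pseudocount, with an exact (Clopper-Pearson) interval of the KO share of rounded reads, and pairs with an exact conditional odds ratio interval (Python 3.11.15, SciPy 1.17.1). With 1 library per genotype there is no replicate, and no p-value was computed. The sources mention no molecular identifiers, so reads are not counted molecules. Every listed product of the 5 hairpins is named, with the 3 products nearest in ratio at a similar level. Members and lists were chosen with earlier results of these data known. Alternatives were other scalings, pseudocounts and minimum values. Sequences are from RefSeq and positions from RefSeq and GENCODE M21.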

Additional observations from a re-analysis of the deposited data

How the results depend on the processing

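The scaling of the libraries had the most weight for well measured members. With totals made equal, first with and then without miR-143-3p, the ratios were 1.51 and 1.41 for miR-335-5p, 1.50 and 1.39 for miR-298-5p, 1.11 and 1.04 for miR-335-3p, 1.45 and 1.35 for *Mest* and 1.58 and 1.47 for *Nespas*. Of 71 ratios recomputed for members and loci, these 10 left the counting interval of the main value, and no ratio whose interval excluded 1 changed direction. Ratios of the *H19* and *Igf2* products moved by less than their wide intervals. Of the members, 3 were at least 2-fold higher, which became 5 and 5 with these scalings (all entries: 361 and 329 up, 219 and 226 down), 1 at a mean of at least 10, and 0 at a mean of at least 100 or with a pseudocount of 10. Over all entries, 306 higher and 265 lower became 122 and 96 among those above 0 in both libraries, 62 and 54 at a mean of at least 10, 20 and 28 at a mean of at least 100, and 47 and 37 with a pseudocount of 10, since fewer entries are tested or low ones shrink. Chosen after seeing the data, a mean of at least 100 with equal totals gave 41 and 15, and without miR-143-3p in the totals 29 and 16. Also chosen after seeing the data, the ratio of the Dlk1-Dio3 sum became 1.27 without its 2 most abundant products. The Dlk1-Dio3 median became 0.69 and 0.59 with the same scalings, and 8 and 7 of 8 epithelial markers were then higher. The 5p shares stayed within their intervals when taken from deposited values. No library could be left out and no paired analysis was possible because there was 1 library per genotype. Depth limits miR-675, miR-483 and miR-298-3p.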
